A study of Mus musculus with 6 samples.

Results

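The genes described here are 51 genes of DNA replication and mitosis, measured by RNA sequencing in mouse Th17 cells that developed with or without the glycolysis inhibitor 2DG. They were found by gene symbol in a table of 23203 loci, and each of the 51 had a locus. The set holds 30 genes of the G1 and S phases (G1/S) and 21 genes of the G2 and M phases (G2/M), sorted by their textbook roles. Naive mouse CD4 T cells were cultured for 48 h on plate-bound anti-CD3e at 10 µg/ml in the presence of anti-CD28 at 1 µg/ml. The Th17 fate, in which helper T cells secrete IL-17, was driven by TGFb1 at 2.5 ng/ml together with IL-6 at 20 ng/ml, while IL-23 was added at 10 ng/ml. The vehicle group received DMSO and the 2DG group received 250 µM 2DG, a glucose analogue that is phosphorylated in the cell but not carried further through glycolysis. Each group held 3 libraries. The sample titles carry the numbers 17, 42 and 43 in both groups, called replicates 1, 2 and 3 here, and do not say what they mark. The labels give no strain, age or genotype, and they leave unsaid whether each library stands for its own animal or culture, so the tests measure the spread between libraries, which may be technical.

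No member differed between the groups at an adjusted p under 0.05 (limma on log2(FPKM + 1), Benjamini-Hochberg over the 10228 loci tested), against 2.72% of all tested loci. An unadjusted p under 0.05 was reached by 3 of the 51, against 17.9% of all tested loci (limma). The 51 log2 differences, 2DG minus vehicle, lay between -0.30 (Lig1) and 0.23 (Cdk6), and their median was -0.03. For 50 of the 51 genes the 95% interval of the difference stayed within 1.5-fold of no change, and for 33 it stayed within 1.25-fold. G1/S and G2/M genes had medians of -0.04 and -0.03. The proliferation markers Mki67, Pcna and Top2a had log2 differences of 0.00, -0.02 and 0.03.

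Replication begins with licensing. In G1, the loaders CDC6 and CDT1 place the ring-shaped MCM helicase on origins, and at the start of S phase CDC45 and the GINS complex turn it into the active fork helicase. D-type cyclins with CDK4 or CDK6 and E-type cyclins with CDK2 release E2F transcription factors, which switch on most genes of this first wave. The second wave, in G2 and M, includes cyclins A and B, CDK1, and the kinases, kinetochore proteins and motors of the spindle, and its promoters commonly carry a cell cycle homology region (CHR) and CCAAT boxes bound by the DREAM, MYB-MuvB and NF-Y complexes. Activated T cells divide several times within days, and glycolysis rises when they do.

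Promoter sequences describe the members of these waves by features other than their measured levels. RefSeq promoter windows (GRCm38.p6, 250 bases before to 50 after an annotated start) were given for 41 of the 51 members. Each window was searched on both strands for an E2F site (TTTGGCGC, TTTCCCGC, TTTGCCGC or TTTCGCGC), a CHR, a CCAAT box and a TATA box. The CHR was spelled TTTGAA, with TTCGAA as its accepted variant. The CCAAT box was spelled as in its name, and the TATA box was spelled TATAAA. The stretches below run 5′ to 3′ in the direction of transcription, and capitals mark E2F, CHR and CCAAT matches, on the strand shown or as their reverse complement. The first 4 are G1/S genes chosen to show E2F matches, among them Lig1 and Cdt1, the members with the lowest p-values.
Cdc6 promoter, chr11:98908003-98908030, plus strand: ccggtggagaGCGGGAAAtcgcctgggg
Cdt1 promoter, chr8:122568037-122568064, plus strand: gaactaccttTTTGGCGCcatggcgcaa
Lig1 promoter, chr7:13278842-13278869, plus strand: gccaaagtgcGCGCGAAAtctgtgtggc
Mcm6 promoter, chr1:128359705-128359825, minus strand: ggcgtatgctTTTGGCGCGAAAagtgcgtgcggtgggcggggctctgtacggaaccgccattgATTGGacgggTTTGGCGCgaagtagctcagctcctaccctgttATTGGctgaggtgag
The next stretches are G2/M genes chosen to show a CHR beside CCAAT boxes. Cdk1 is shown because it was the single G2/M gene with an E2F match.
Cdk1 promoter, chr10:69352912-69353130, minus strand: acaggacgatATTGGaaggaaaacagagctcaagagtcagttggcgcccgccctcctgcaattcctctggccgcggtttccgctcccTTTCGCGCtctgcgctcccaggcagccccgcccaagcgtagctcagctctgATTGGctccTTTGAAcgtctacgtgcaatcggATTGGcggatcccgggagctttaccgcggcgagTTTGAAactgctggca
Cdc20 promoter, chr4:118437337-118437406, minus strand: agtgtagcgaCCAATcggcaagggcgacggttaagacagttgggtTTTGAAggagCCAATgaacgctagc
Kif11 promoter, chr19:37376327-37376378, plus strand: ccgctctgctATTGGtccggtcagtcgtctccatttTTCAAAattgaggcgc
Mki67 promoter, chr7:135716462-135716577, minus strand: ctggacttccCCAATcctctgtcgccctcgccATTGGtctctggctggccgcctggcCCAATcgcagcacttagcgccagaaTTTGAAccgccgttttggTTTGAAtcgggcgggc
Prc1 promoter, chr7:80294404-80294461, plus strand: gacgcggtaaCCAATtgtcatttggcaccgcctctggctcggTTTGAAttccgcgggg

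An E2F match was present in 12 of 24 G1/S genes with a window (50%), in 1 of 17 G2/M genes (5.88%) and in 2.6% of the 27025 genes in the promoter table. In the Mcm6 stretch the first run of capitals holds a pair of overlapping E2F matches that face opposite ways, and another match lies nearer the start. The Cdt1 match and the Lig1 match lie after the annotated start, and Lig1 has further annotated starts whose windows held none. A CHR was present in 13 of 17 G2/M genes (76.5%), in 6 of 24 G1/S genes (25%) and in 21.7% of all genes. Each of those 13 G2/M genes also had a CCAAT box, a combination present in 9.65% of all genes. CCAAT boxes were present in 15 of 17 G2/M genes (88.2%), 15 of 24 G1/S genes (62.5%) and 41.1% of all genes. A TATA box was present in no G2/M gene and in 3 of 24 G1/S genes (12.5%), against 15.7% of all genes. The windows of E2f1 and Cdk6, counted without an E2F match, lie inside the gene, past its outermost annotated start. The sequence before that start was not searched. A match of these letters is a description of the window and not a measured binding site.

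**Figure D1:**
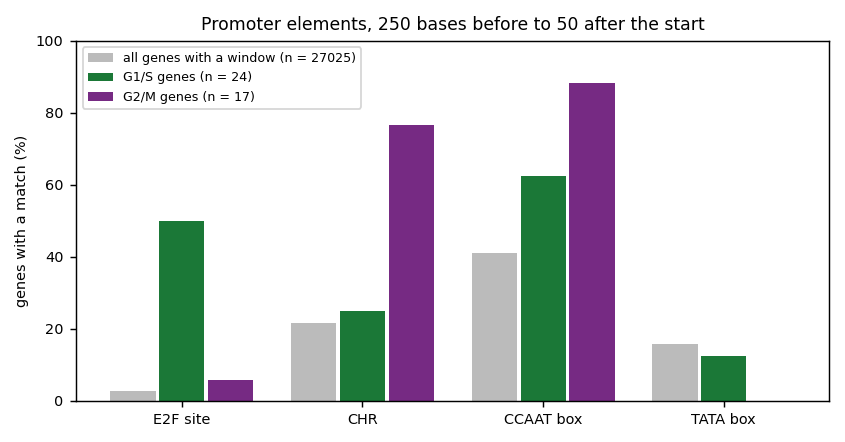
Share of genes with a match to each element in any of their promoter windows (percent), for G1/S members, G2/M members and all genes with a RefSeq window. E2F matches were most frequent among G1/S members (50%) and CHR matches among G2/M members (76.5%), against 2.6% and 21.7% of all genes.

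The 51 genes were expressed well above the typical locus. FPKM counts fragments for each kilobase of transcript, scaled between libraries in a way the sources used here do not give. Dividing by length lets levels be compared between genes. Mean FPKM over the 6 libraries ranged from 6.58 for E2f1 to 341 for Top2a, with a median of 60.9, against 14.7 over all tested loci. Of the members, 50 had a mean of 10 FPKM or more. All passed the minimum mean of 1 FPKM that decided which loci were tested. Levels were also steady between libraries: the highest library was a median of 1.19 times the lowest for members and 1.40 times for all tested loci. That ratio was smallest for Mcm6 (1.04) and largest for Gins1 (1.59). It was under 1.5 for 49 of the 51 members, and under 1.5 for 62.6% of tested loci. No set of loci matched to the members in level was compared for this ratio.

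**Figure D2:**
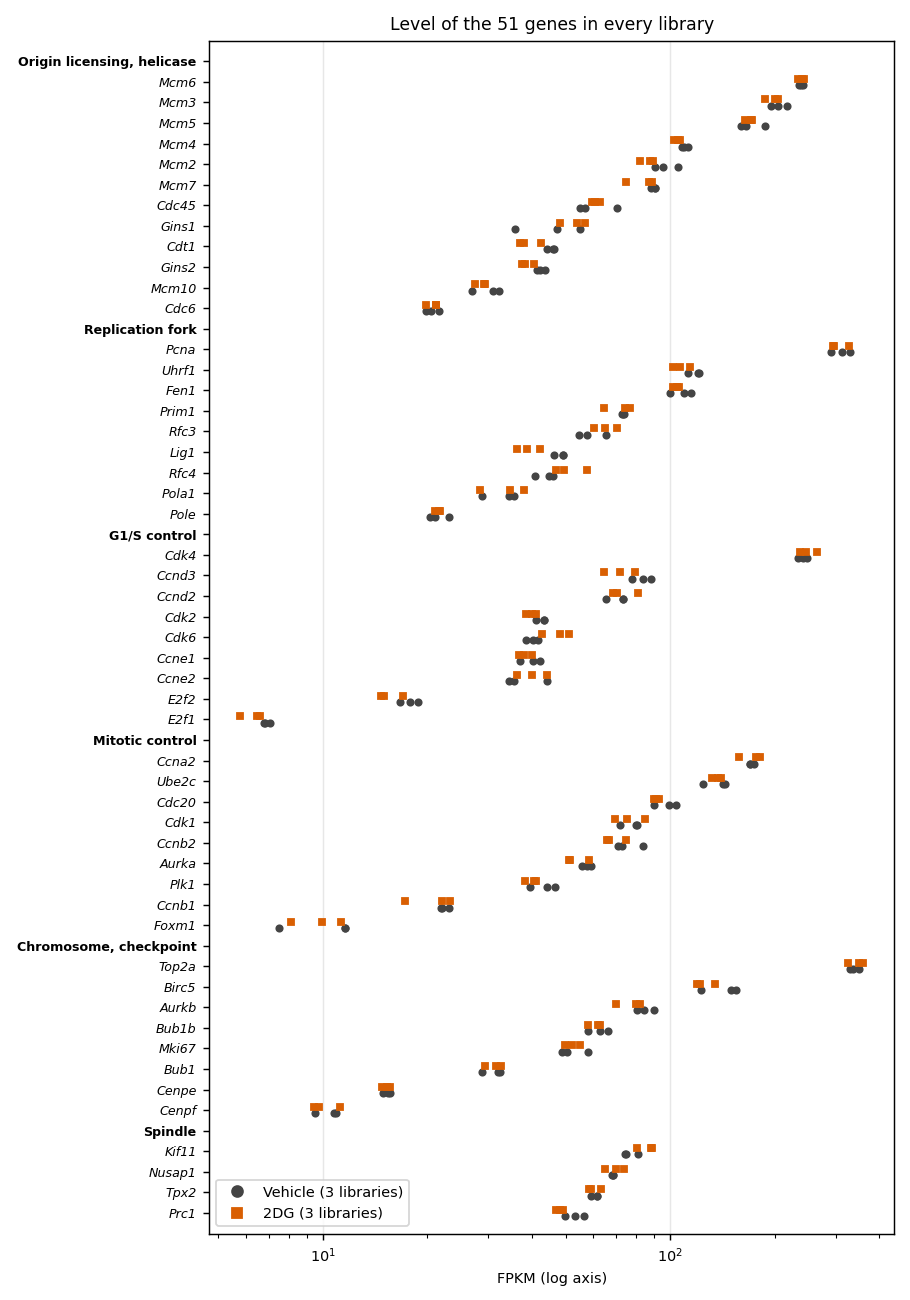
FPKM (log axis) of each of the 51 genes in the 3 vehicle and 3 2DG libraries, ordered by role. The points of both groups lie close together for nearly every gene, and the levels run from 6.58 (E2f1) to 341 (Top2a) as means of 6 libraries.

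The libraries carried the identity the labels give. The T cell markers summed to 889 to 1032 FPKM with vehicle and 876 to 980.4 FPKM with 2DG, and the Th17 markers to 1730.0 to 2008 and 2371 to 3090.4 FPKM. Il17a rose with 2DG (log2 difference 1.36, adjusted p = 0.00315, limma), so the same test made calls in these libraries. That difference is much larger than those of the 51 genes, and it does not show whether changes of their size would be called. Markers of CD8 T cells, B cells, NK cells, neutrophils and erythroid cells summed to at most 5.51 FPKM in any library. Myeloid and dendritic cell markers summed to 26.9 to 37.9 FPKM with vehicle and 30.4 to 58.2 FPKM with 2DG, mostly from H2-Ab1 and Cd74, and Csf1r was at 0 to 0.120 FPKM. The ribosomal precursor locus Rn45s was listed at 12874 FPKM in vehicle replicate 1 and 7186 FPKM in 2DG replicate 1 and at 0 in the other 4 libraries. Its part in the results was not tested. The depth of each library is unknown because the table holds no counts. In RNA from whole cultures, fewer cycling cells and less of a transcript in each cycling cell cannot be told apart.

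Licensing genes. Of the 12 genes for the helicase, its loaders and its activators, none passed the test (1 had an unadjusted p under 0.05, limma) and their median log2 difference was -0.06 (range -0.21 to 0.22). The counts of this and the later role groups are to be read against all tested loci. Of those, 17.9% had an unadjusted p under 0.05 (limma) and 23.7% had groups without overlap. The members of the MCM ring stood in the order Mcm6, Mcm3, Mcm5 and Mcm4 from the top in 6 of 6 libraries, while Mcm2 and Mcm7 exchanged places, with Mcm2 above Mcm7 in 4 of 6. Mcm6 was at 235, 239 and 242 FPKM in the vehicle libraries, against 243, 234 and 239.9 FPKM in the 2DG libraries. The groups overlapped, and the log2 difference was 0.00 with a 95% interval of 0.894 to 1.12 times the vehicle level. Mcm6 over Mcm7, a ratio of levels within the ring, was 2.66 for the vehicle means and 2.86 for the 2DG means.

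Mcm2, a ring subunit often used as a proliferation marker, was at 90.2, 105 and 95.3 FPKM in the vehicle libraries, against 82.1, 89.5 and 87.6 FPKM in the 2DG libraries. Every 2DG library lay below every vehicle library, by a small step: the log2 difference was -0.16 ± 0.08 (SE; adjusted p = 0.374, limma). Mcm4 was also lower in every 2DG library, at 108, 109 and 112 FPKM in the vehicle libraries, against 105, 103 and 107 FPKM in the 2DG libraries (log2 difference -0.07). Mcm5 was at 160.2, 187 and 166 FPKM in the vehicle libraries, against 164, 170.4 and 172 FPKM in the 2DG libraries, with overlapping groups and a log2 difference of -0.01. Mcm3 and Mcm7 had log2 differences of -0.06 and -0.10, with overlapping groups. Mcm10, which joins the helicase to the polymerase, had one of -0.06.

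Cdt1, the loader whose activity is limited to G1, was at 46.3, 44.2 and 46.1 FPKM in the vehicle libraries, against 38.1, 36.9 and 42.6 FPKM in the 2DG libraries. The groups did not overlap, and the means were 45.5 ± 1.17 FPKM (vehicle, SD, n = 3) and 39.2 ± 2.98 FPKM (2DG, SD, n = 3). The log2 difference was -0.21 ± 0.08 (SE; adjusted p = 0.222, limma; unadjusted p under 0.05). Cdc6, its partner in loading, was nearly level at 20.5, 19.8 and 21.6 FPKM in the vehicle libraries, against 21.2, 19.8 and 21.2 FPKM in the 2DG libraries, with a 95% interval of 0.888 to 1.13 times the vehicle level.

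The activators gave mixed values. Gins1 and Gins2 encode partner subunits of the GINS complex. Gins1 was at 55.0, 35.9 and 47.1 FPKM in the vehicle libraries, against 54.1, 48.1 and 57.0 FPKM in the 2DG libraries, with a low vehicle replicate 2 and overlapping groups. Its log2 difference was 0.22 ± 0.16 (SE; adjusted p = 0.524, limma), and its 95% interval of 0.904 to 1.501 times the vehicle level was the single one among the members to pass 1.5-fold. Gins2 was lower in every 2DG library, at 43.8, 42.3 and 41.4 FPKM in the vehicle libraries, against 38.3, 37.5 and 40.6 FPKM in the 2DG libraries (log2 difference -0.13, adjusted p = 0.398, limma). Cdc45 had a log2 difference of 0.02, with its highest value, 70.4 FPKM, in vehicle replicate 2.

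Fork genes. None of the 9 genes that copy DNA or process the new strands passed the test. An unadjusted p under 0.05 was reached by 1 of them, against 17.9% of all tested loci (limma). Their median log2 difference was -0.02 (range -0.30 to 0.22). Pcna, the sliding clamp that holds polymerases on DNA, was at 313, 330.0 and 290.4 FPKM in the vehicle libraries, against 295, 296 and 328 FPKM in the 2DG libraries. The groups overlapped, and the 95% interval was 0.851 to 1.14 times the vehicle level (log2 difference -0.02). The polymerase and primase genes Pole, Pola1 and Prim1 and the flap nuclease gene Fen1 had log2 differences of 0.00, 0.03, -0.03 and -0.05, all with overlapping groups.

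Lig1, DNA ligase I, joins Okazaki fragments on the lagging strand (locus chr7:13277175-13311426 in RefSeq GRCm38.p6), and it had the smallest p of the 51. It was at 49.1, 49.2 and 46.2 FPKM in the vehicle libraries, against 36.2, 42.1 and 38.7 FPKM in the 2DG libraries. The groups did not overlap, and every 2DG library lay below the lowest vehicle library. The means were 48.2 ± 1.68 FPKM (vehicle, SD, n = 3) and 39.0 ± 2.97 FPKM (2DG, SD, n = 3), a ratio of 0.810. The log2 difference was -0.30 ± 0.08 (SE; adjusted p = 0.114, limma; unadjusted p under 0.05), so it missed the threshold. Its 95% interval was 0.711 to 0.928 times the vehicle level.

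The clamp loader opens PCNA and places it on DNA. Its gene Rfc4 was at 44.7, 41.0 and 45.9 FPKM in the vehicle libraries, against 49.4, 46.8 and 57.7 FPKM in the 2DG libraries, with every 2DG library above every vehicle library (log2 difference 0.22 ± 0.10, SE; adjusted p = 0.307, limma). Rfc3 was at 54.6, 65.3 and 57.5 FPKM in the vehicle libraries, against 65.0, 60.4 and 70.4 FPKM in the 2DG libraries, with overlapping groups (log2 difference 0.14, adjusted p = 0.509, limma). The other genes of that loader, Rfc1, Rfc2 and Rfc5, which are not members and also did not pass the test, had log2 differences of -0.07, -0.03 and 0.25. Uhrf1, which brings the maintenance DNA methyltransferase to new DNA, was at 113, 121 and 121 FPKM in the vehicle libraries, against 102, 114 and 107 FPKM in the 2DG libraries. The groups overlapped, and its log2 difference was -0.14 (adjusted p = 0.419, limma).

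Cyclins, kinases and E2F factors of G1 and S. None of these 9 genes passed the test, and 1 had an unadjusted p under 0.05, against 17.9% of all tested loci (limma). The median was -0.06 (range -0.21 to 0.23). Among the D cyclins, which carry mitogen signals to the cell cycle, Ccnd2 was at 73.4, 65.3 and 73.3 FPKM in the vehicle libraries, against 70.1, 80.8 and 68.5 FPKM in the 2DG libraries. Ccnd3 was at 77.6, 88.2 and 83.3 FPKM in the vehicle libraries, against 64.6, 79.3 and 72.0 FPKM in the 2DG libraries. Both had overlapping groups, with log2 differences of 0.05 ± 0.09 and -0.21 ± 0.10 (SE; adjusted p = 0.837 and 0.321, limma). Ccnd1, listed as a related gene and not a member, was not tested: its locus, shared with Mir3962, was at 0.189, 0.459 and 0.271 FPKM in the vehicle libraries, against 0.318, 0.549 and 0.289 FPKM in the 2DG libraries. The D cyclin transcripts of these cells were those of Ccnd2 and Ccnd3, with Ccnd1 under 1 FPKM in every library.

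Cdk6, a partner kinase of the D cyclins, had the highest log2 difference of the members. It was at 40.4, 38.6 and 41.8 FPKM in the vehicle libraries, against 51.1, 48.1 and 42.8 FPKM in the 2DG libraries. The groups did not overlap, although 2DG replicate 3 lay close to the highest vehicle library. The log2 difference was 0.23 ± 0.09 (SE; adjusted p = 0.235, limma; unadjusted p under 0.05). Cdk4, the other partner kinase, was at 241, 248 and 234 FPKM in the vehicle libraries, against 246, 236 and 264 FPKM in the 2DG libraries, with overlapping groups and a 95% interval of 0.907 to 1.17 times the vehicle level. Cdk4 over Cdk6 was 5.99 for the vehicle means and 5.25 for the 2DG means.

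The E cyclins and CDK2 act at the entry into S phase. Ccne1 was at 37.0, 40.4 and 42.1 FPKM in the vehicle libraries, against 37.9, 36.7 and 39.9 FPKM in the 2DG libraries, with overlapping groups and a log2 difference of -0.06. Cdk2 was at 41.1, 43.4 and 43.3 FPKM in the vehicle libraries, against 41.1, 40.1 and 38.5 FPKM in the 2DG libraries (log2 difference -0.09), and Ccne2 had a log2 difference of 0.08; both overlapped between groups. The E2F activators were the least abundant of the G1/S genes. E2f1 was at 6.79, 7.03 and 6.82 FPKM in the vehicle libraries, against 5.79, 6.61 and 6.47 FPKM in the 2DG libraries, lower in every 2DG library, with a log2 difference of -0.11 (adjusted p = 0.570, limma). E2f2 was at 16.7, 18.8 and 17.8 FPKM in the vehicle libraries, against 15, 17.0 and 14.7 FPKM in the 2DG libraries, with 2DG replicate 2 inside the vehicle range and a log2 difference of -0.18 (adjusted p = 0.355, limma). E2f2 over E2f1 was 2.58 for the vehicle means and 2.47 for the 2DG means.

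Mitotic cyclins, kinases and their regulators. None of these 9 genes passed the test or had an unadjusted p under 0.05 (limma), their groups all overlapped, and the median was -0.09 (range -0.13 to 0.00). Cdk1, the kinase that starts mitosis, was at 80.4, 71.9 and 79.8 FPKM in the vehicle libraries, against 75.3, 69.3 and 84.9 FPKM in the 2DG libraries, and its 95% interval was 0.843 to 1.16 times the vehicle level. Of its B cyclins, Ccnb1 was at 22.1, 22.0 and 23.0 FPKM in the vehicle libraries, against 22.0, 17.2 and 23.2 FPKM in the 2DG libraries. Its lowest value was that of 2DG replicate 2, and the other 2DG libraries lay at the vehicle level. Ccnb2 was at 72.8, 83.7 and 70.8 FPKM in the vehicle libraries, against 65.7, 66.8 and 74.4 FPKM in the 2DG libraries. The log2 differences were -0.11 and -0.13 (adjusted p = 0.686 and 0.526, limma), and Ccnb2 over Ccnb1 was 3.39 for the vehicle means and 3.31 for the 2DG means. Ccna2, cyclin A, had a log2 difference of 0.00.

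Plk1, the kinase of centrosome maturation and mitotic exit, was at 44.3, 46.8 and 39.5 FPKM in the vehicle libraries, against 38.3, 41.0 and 40.7 FPKM in the 2DG libraries (log2 difference -0.12). Aurka, the centrosome kinase that activates it, was at 55.9, 57.8 and 59.3 FPKM in the vehicle libraries, against 51.2, 51.3 and 58.3 FPKM in the 2DG libraries (log2 difference -0.11). Foxm1 encodes a transcription factor of the G2/M wave, and its locus also names the neighbouring 4933413G19Rik, so its value may hold reads of both. It was at 7.50, 11.6 and 11.6 FPKM in the vehicle libraries, against 9.95, 11.3 and 8.12 FPKM in the 2DG libraries. The spread was wide within both groups, and the 95% interval was 0.716 to 1.31 times the vehicle level. Cdc20, which directs the anaphase promoting complex to its targets, was at 89.8, 104 and 99.0 FPKM in the vehicle libraries, against 90.0, 91.4 and 92.7 FPKM in the 2DG libraries (log2 difference -0.09), and Ube2c, the conjugating enzyme of that complex, had a log2 difference of 0.00.

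Chromosome and checkpoint genes. None of these 8 genes passed the test or had an unadjusted p under 0.05 (limma), their groups all overlapped, and the median was -0.02 (range -0.18 to 0.03). Mki67, which encodes the Ki-67 protein that coats mitotic chromosomes and marks cycling cells, was at 48.8, 58.0 and 50.5 FPKM in the vehicle libraries, against 50, 52.3 and 55.2 FPKM in the 2DG libraries. The means were 52.4 ± 4.86 FPKM (vehicle, SD, n = 3) and 52.5 ± 2.61 FPKM (2DG, SD, n = 3), and the 95% interval was 0.867 to 1.16 times the vehicle level. Top2a, the topoisomerase that untangles sister chromatids, was the most abundant member, at 329, 337 and 349 FPKM in the vehicle libraries, against 349, 325 and 359.6 FPKM in the 2DG libraries, with a 95% interval of 0.894 to 1.16 times the vehicle level.

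The chromosomal passenger complex, which corrects attachment of chromosomes to the spindle, is represented by Birc5 (survivin) and Aurkb. Birc5 was at 123, 155 and 149 FPKM in the vehicle libraries, against 119, 135 and 122 FPKM in the 2DG libraries, with 2DG replicate 2 inside the vehicle range. Its log2 difference was -0.18 ± 0.11 (SE; adjusted p = 0.456, limma), the lowest of the G2/M genes. Aurkb was at 84.2, 89.9 and 80.4 FPKM in the vehicle libraries, against 70.0, 80.0 and 82.0 FPKM in the 2DG libraries (log2 difference -0.13, adjusted p = 0.50, limma), with the lowest value in 2DG replicate 1. The checkpoint kinase genes Bub1 and Bub1b had log2 differences of 0.00 and -0.03. Bub1b was at 58.1, 66.5 and 62.9 FPKM in the vehicle libraries, against 58.1, 62.6 and 62.1 FPKM in the 2DG libraries. The kinetochore genes Cenpe and Cenpf had log2 differences of 0.00 and -0.04, and Cenpf was at 10.9, 9.53 and 10.8 FPKM in the vehicle libraries, against 9.43, 9.76 and 11.2 FPKM in the 2DG libraries.

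Spindle genes. None of these 4 genes passed the test or had an unadjusted p under 0.05 (limma), and the median was 0.00 (range -0.14 to 0.16). Kif11, the motor that pushes spindle poles apart, was at 74.1, 74.7 and 81.0 FPKM in the vehicle libraries, against 87.9, 80.2 and 88.9 FPKM in the 2DG libraries. Only 2DG replicate 2 lay inside the vehicle range, and the log2 difference was 0.16 ± 0.08 (SE; adjusted p = 0.346, limma), the highest of the G2/M genes. Prc1, which bundles microtubules of the spindle midzone, was at 49.7, 56.3 and 53.4 FPKM in the vehicle libraries, against 46.9, 49.3 and 48.3 FPKM in the 2DG libraries. It was the single G2/M gene whose groups did not overlap, with a log2 difference of -0.14 ± 0.08 (SE; adjusted p = 0.401, limma). The printed promoters of Kif11 and Prc1 each hold a CHR with a CCAAT box, and their log2 differences had opposite signs. Tpx2, an activator of Aurora A on the spindle, was at 59.0, 61.7 and 61.7 FPKM in the vehicle libraries, against 58.4, 59.1 and 63.2 FPKM in the 2DG libraries. The microtubule-binding gene Nusap1 was at 68.6, 68.3 and 67.9 FPKM in the vehicle libraries, against 69.8, 65.0 and 73.7 FPKM in the 2DG libraries. Both overlapped between groups, with log2 differences of -0.01 and 0.02.

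**Figure D3:**
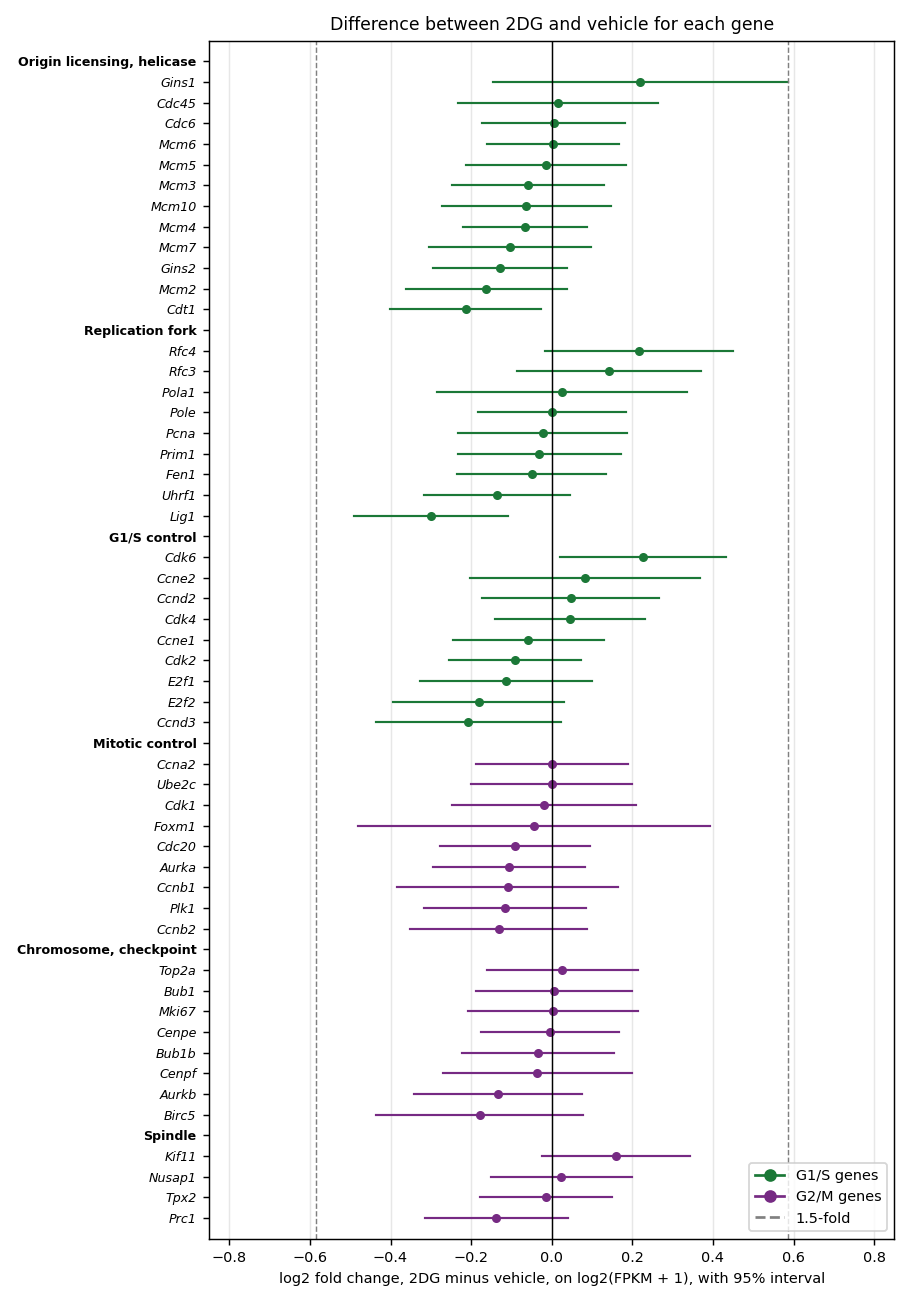
Log2 difference (2DG minus vehicle, on the log2(FPKM + 1) scale) of the 51 genes by role, with bars for the 95% interval from limma. Values lie between -0.30 (Lig1) and 0.23 (Cdk6), and the interval of Gins1 is the single one to reach past 1.5-fold.

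Across the 51 genes the counts were as follows. At an unadjusted p under 0.05 (limma), 3 members stood out, Lig1 and Cdt1 lower and Cdk6 higher, where 17.9% of all tested loci did. All 3 are among the 30 G1/S genes, and no G2/M gene reached that level. Both shares lay below that of all tested loci, so these counts do not measure a difference between the phases. The 2DG and vehicle libraries did not overlap for 9 members (17.6%), against 23.7% of all tested loci. Of these, 7 were lower with 2DG (Mcm2, Mcm4, Cdt1, Gins2, Lig1, E2f1 and Prc1), where 11.8% of all loci were lower without overlap, and 2 were higher (Rfc4 and Cdk6), where 11.9% were. The estimate lay below 0 for 33 members (18 of 30 G1/S and 15 of 21 G2/M genes) and for 52.1% of all tested loci. With the estimates this close to 0, their signs are not a measured direction for single genes.

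The intervals of the members were narrow beside those of all tested loci. Members also had higher levels, with a median of 60.9 FPKM against 14.7 for all tested loci and 28.6 for loci of at least 10 FPKM. No set matched in level was compared. The 95% interval lay within 1.25-fold of no change for 33 members (64.7%), against 25.2% of all tested loci and 34.8% of loci whose mean reached 10 FPKM. By phase these were 18 of 30 G1/S genes (60%) and 15 of 21 G2/M genes (71.4%). The share was 50% for the 40 other replication genes and 47.4% for the 57 other mitosis genes described below. The interval lay within 1.5-fold for 98.0% of members and 74.2% of all tested loci. The median standard error of the log2 difference was 0.08 for members, 0.12 for all tested loci and 0.10 for loci of at least 10 FPKM. It was 0.095 for the other replication genes and 0.094 for the other mitosis genes. The median size of the log2 difference, without its sign, was 0.063 for members and 0.130 for all tested loci.

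**Figure D4:**
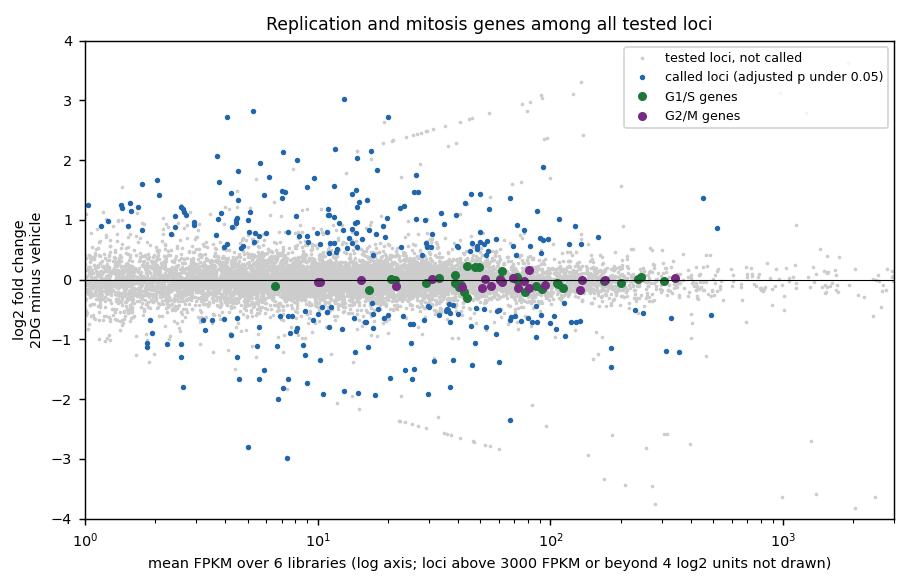
Log2 difference (2DG minus vehicle) against mean level for the 10228 tested loci, with loci past an adjusted p of 0.05 and the 51 members marked. The members lie between -0.30 and 0.23 at levels mostly above 10 FPKM, and none is among the 278 loci called.

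The phases were compared through the mean log2(FPKM + 1) of their genes in each library, as a description without a test. The G1/S mean was 5.93, 5.97 and 5.97 with vehicle and 5.91, 5.90 and 5.96 with 2DG. The G2/M mean was 5.82, 5.91 and 5.90 with vehicle and 5.80, 5.81 and 5.89 with 2DG. The groups overlapped for G2/M genes, and for G1/S genes 2DG replicate 3 lay inside the vehicle range. The differences of the group means, -0.03 for G1/S and -0.04 for G2/M genes, were of the size of the SDs between libraries (0.02 and 0.03 for G1/S, 0.05 and 0.05 for G2/M). Over all tested loci the mean was 4.03, 4.09 and 4.05 with vehicle and 4.04, 4.08 and 4.05 with 2DG. The SDs of that mean were 0.03 and 0.02, so part of the spread between libraries is shared with all loci. The G2/M mean minus the G1/S mean was -0.11, -0.05 and -0.07 with vehicle and -0.11, -0.09 and -0.07 with 2DG, which gives -0.08 ± 0.03 and -0.09 ± 0.02 (SD, n = 3 each). The difference between the groups, -0.01, was smaller than either SD.

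Among the members, the highest and lowest values gathered in a few libraries. The same count was not made over all tested loci, so it is not shown to be a trait of these genes. The mean log2(FPKM + 1) of all tested loci was itself highest in vehicle replicate 2 (4.09) and lowest in vehicle replicate 1 (4.03). The part of such offsets between libraries in the counts was not tested. The lowest of the 6 values was in 2DG replicate 1 for 16 members, in 2DG replicate 2 for 14, and in 2DG replicate 3 for 2. With vehicle it was in replicate 1 for 10, in replicate 2 for 6 and in replicate 3 for 3. The highest was in vehicle replicate 2 for 22 members and in 2DG replicate 3 for 15. For G2/M genes, vehicle replicate 2 and 2DG replicate 3 each held the highest value of 9 genes, and 2DG replicate 1 the lowest of 10. Vehicle replicate 1 and 2DG replicate 2 each held the lowest of 5. Neither replicate 1 library nor 2DG replicate 2 held the highest value of a G2/M gene. The 2DG group thus held the library with most low values and a library with many high ones. Whether low values follow the group or the replicate number was not tested.

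**Figure D5:**
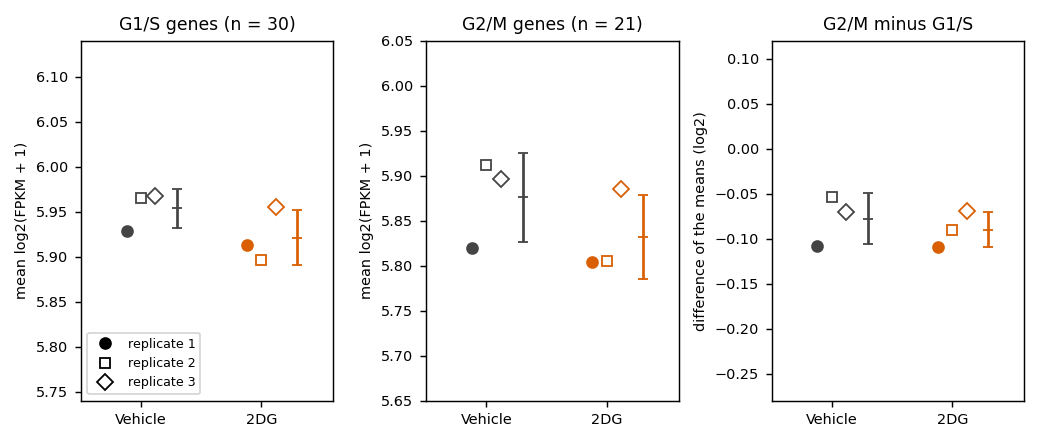
Mean log2(FPKM + 1) of the 30 G1/S genes, of the 21 G2/M genes and the difference between them, in each library, with the group mean and SD (n = 3). The vehicle and 2DG points overlap in each panel, and the difference is -0.08 ± 0.03 with vehicle and -0.09 ± 0.02 with 2DG.

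The log2 differences were also set beside promoter content, as a description. The 12 G1/S genes with an E2F match had a median log2 difference of -0.08 (range -0.30 to 0.14) and the 12 without had one of -0.04 (range -0.21 to 0.23). Those without include E2f1 and Cdk6, whose windows lie inside the gene. The 13 G2/M genes with a CHR had a median of -0.03 (range -0.14 to 0.16), and the 4 without had one of -0.06 (range -0.18 to 0.02). Lig1 and Cdt1, the lowest, have E2F matches, and so does Rfc3, at the other end of that range.

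Other genes of the same pathways were read in the same fit. Of 158 further genes in 5 lists, 153 were tested, none passed an adjusted p of 0.05, and 19 had an unadjusted p under 0.05 (limma; 5 higher and 14 lower), where 17.9% of all tested loci did (928 higher and 902 lower). The shares of the single lists below are to be read against that 17.9%, and the direction of genes that did not pass the test is not a result. The groups did not overlap for 31 of the 153 (20.3%), against 23.7% of all tested loci, and their median log2 difference was -0.02, against -0.01 for all tested loci.

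Of 40 other replication genes tested, 5 had an unadjusted p under 0.05, 2 higher and 3 lower, and the median log2 difference was -0.05. Orc1, the subunit of the origin recognition complex that cycles with G1, was at 19.5, 21.3 and 21.0 FPKM in the vehicle libraries, against 17.2, 13.6 and 15.6 FPKM in the 2DG libraries, without overlap (log2 difference -0.40 ± 0.10, SE; adjusted p = 0.0925, limma). Pole4, an accessory subunit of polymerase epsilon, was at 45.8, 40.2 and 43.3 FPKM in the vehicle libraries, against 58.3, 48.0 and 62.1 FPKM in the 2DG libraries, higher in every 2DG library (log2 difference 0.37 ± 0.11, SE; adjusted p = 0.146, limma).

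Of 57 other mitosis genes, 4 had an unadjusted p under 0.05, against 17.9% of all tested loci, and these were lower, and the median log2 difference was -0.05. Pttg1, securin, which holds back the enzyme that separates sister chromatids, was at 102, 99.99 and 97.0 FPKM in the vehicle libraries, against 78.4, 70.3 and 84.8 FPKM in the 2DG libraries (log2 difference -0.36 ± 0.09, SE; adjusted p = 0.0864, limma). Ncaph, a subunit of the condensin complex that compacts mitotic chromosomes, was at 50.9, 54.7 and 52.5 FPKM in the vehicle libraries, against 41.5, 43.9 and 43.8 FPKM in the 2DG libraries (log2 difference -0.29 ± 0.07, SE; adjusted p = 0.0846, limma). In both genes every 2DG library lay below every vehicle library, and neither passed the threshold.

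Of 14 tested brakes of the cycle, 3 had an unadjusted p under 0.05, 1 higher and 2 lower, and the median log2 difference was 0.03. Cdkn1a, which encodes the CDK inhibitor p21, was at 20.4, 17.8 and 15.8 FPKM in the vehicle libraries, against 10.6, 16.6 and 10.5 FPKM in the 2DG libraries. 2DG replicate 2 lay inside the vehicle range, and the log2 difference was -0.51 ± 0.18 (SE; adjusted p = 0.207, limma). Cdkn1b, which encodes p27, was at 49.4, 55.9 and 48.7 FPKM in the vehicle libraries, against 55.1, 57.6 and 48.7 FPKM in the 2DG libraries, with a log2 difference of 0.06. Pkmyt1, a kinase that holds CDK1 inactive, was at 19.4, 20.6 and 20.4 FPKM in the vehicle libraries, against 14.6, 16 and 16.1 FPKM in the 2DG libraries, without overlap (log2 difference -0.35 ± 0.08, SE; adjusted p = 0.0671, limma). Its call depended on scaling: with the median of the tested loci set equal in each library its adjusted p was 0.0482 (limma).

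Of 18 tested genes of the E2F, MuvB and related regulators, 1 had an unadjusted p under 0.05, lower, and the median log2 difference was -0.02. Lin54, the MuvB subunit that binds the CHR, was at 16, 17.7 and 16.3 FPKM in the vehicle libraries, against 14.6, 13.1 and 14.5 FPKM in the 2DG libraries, without overlap (log2 difference -0.23, adjusted p = 0.208, limma). Lin37, another subunit of that complex, was at 8.55, 8.97 and 8.31 FPKM in the vehicle libraries, against 8.24, 6.82 and 5.91 FPKM in the 2DG libraries, also without overlap (log2 difference -0.28, adjusted p = 0.295, limma).

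Of 24 genes of the S phase checkpoint and repair, 6 had an unadjusted p under 0.05, 2 higher and 4 lower, and the median log2 difference was -0.01. Fanci, a Fanconi anaemia protein that acts at blocked forks, was at 25.7, 26.6 and 21.4 FPKM in the vehicle libraries, against 18.2, 17.9 and 18.1 FPKM in the 2DG libraries, without overlap (log2 difference -0.42 ± 0.10, SE; adjusted p = 0.0737, limma). When small RNA genes were left out before the fit its adjusted p was 0.0497 (limma). Rad9a, part of the clamp of the replication checkpoint, listed under its older symbol Rad9, was at 25.7, 26.0 and 21.9 FPKM in the vehicle libraries, against 17.6, 20.3 and 18.6 FPKM in the 2DG libraries, without overlap (log2 difference -0.36 ± 0.10, SE; adjusted p = 0.109, limma).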

How the data were processed

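3 vehicle and 3 2DG libraries were sequenced from RNA, and the authors deposited 1 table with an FPKM value per locus and library. The tools named, per the submitters' processing notes, are Cuffdiff 2.2.1.3 and Cuffnorm 2.2.1.1, Cufflinks 2.2.1.0 as well as TopHat2 2.1.0, on the mm10 build. Their settings and annotation, whether strand was used and how libraries were scaled: not given in the sources used here. In the deposited FPKM values the 75th percentiles of the libraries lay between 10.9 and 11.6 and the sums between 1469420 and 1958740, of which small RNA genes held 70.5% to 76.7%. FPKM are estimates without counts, so depth is unknown and no count model was used. Values of genes with near-identical copies or overlapping neighbours are uncertain.

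Members were matched by symbol, with symbols of shared loci split at commas. limma 3.58.1 in R 4.3.3 was fitted on log2(FPKM + 1) with group as the only term and eBayes with a trend, for the 10228 loci whose mean reached 1 FPKM. Tests were two-sided, p-values were adjusted by Benjamini-Hochberg over all tested loci, and the threshold was 0.05. Log2 differences understate the change of low genes because of the pseudocount of 1. For 1 gene, an exact permutation test of 3 libraries against 3 has 0.1 as its smallest p. The code was tested on simulated data. Gene coordinates and promoter windows are RefSeq's for GRCm38.p6, the assembly of mm10.

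The members, the gene lists and the alternatives were chosen with earlier results of these data known. Values in every library are given for up to 4 members of smallest p in each of the 6 role groups and for 15 listed members, some of which are in both sets. The 15 are Mki67, Pcna, Mcm2, Mcm5, E2f1, Ccnd2, Ccnd3, Ccne1, Cdk4, Cdk6, Cdk1, Ccnb1, Top2a, Foxm1 and Plk1. Such values are also given for 2 genes of smallest p in each other list with Cdkn1a, Cdkn1b and Ccnd1. Mcm4, Mcm6, Cdc6, Rfc1, Rfc2 and Rfc5 were added after their values were seen. Alternatives changed the pseudocount, the filter, the scaling, the loci, the eBayes settings, the libraries and the replicate term. Figures were drawn with matplotlib 3.10.9.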

Additional observations from a re-analysis of the deposited data

How the results depend on the processing

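The count of members called, 0 higher and 0 lower, was the same under each of the 17 alternatives, and so were the counts for G1/S and G2/M genes. The smallest adjusted p of a member (limma) ranged from 0.0858 (Lig1, equal medians of the tested loci) to 0.766 (Lig1, libraries rescaled to an equal sum). The median log2 difference of G1/S genes, -0.04 as reported, was -0.0019 with quantile normalization. When each library was left out in turn it ranged from -0.0700 to -0.0264, with the lowest value without 2DG replicate 3 and a near value without Vehicle replicate 1 (-0.0690). The G2/M median, -0.03 as reported, ranged from -0.07 to -0.01 in those fits. The G2/M median minus the G1/S median, 0.01 as reported, ranged from -0.0184 to 0.0272, with the lowest value without Vehicle replicate 2, and was -0.0172 with quantile normalization, so its sign was not stable. The cause of these shifts was not tested. Between 0 and 12 of the 51 log2 differences, none of them called, changed sign in an alternative.

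The numbers 17, 42 and 43 are shared by the titles of both groups, and what they mark is not stated. The correlations of same-numbered libraries' deviations from the group means were -0.05, 0.19 and -0.11, and a pairing was taken as shown only if each passed 0.1. Those of differently numbered libraries ranged from -0.17 to 0.22, so the same-numbered values lay within that range. Both replicate 1 libraries stood apart from the other 4, with Rn45s at 12874 and 7186 FPKM against 0 and FPKM sums of 1469420 and 1471760, so a shared source of the same-numbered libraries is neither shown nor set aside. With the replicate block, 0 members were called (smallest adjusted p 0.147, Lig1, limma) and the medians stayed at -0.04 for G1/S and -0.03 for G2/M genes. The counts over all tested loci moved more. They were 156 higher and 122 lower as reported, 57 and 44 with the replicate block, 108 and 77 without the filter on low values, 95 and 62 with an equal sum, 247 and 199 with robust eBayes, 265 and 224 without small RNA genes, and 43 and 28 with replicates 2 and 3 only, a fit of 2 libraries against 2 in which the smallest adjusted p of a member was 0.488 and 12 members changed sign. They ranged from 52 to 98 higher and from 25 to 69 lower with a library left out. Among the other lists, Pkmyt1 was called with equal medians (adjusted p = 0.0482, log2 difference -0.37) and Fanci without small RNA genes (adjusted p = 0.0497, log2 difference -0.42).

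With 3 libraries a group and no counts, the precision of each value rests on the spread that limma pools over loci. Depth is unknown, so no limit of detection from counting can be given.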
